A study of Rattus norvegicus with 9 samples.

Results

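The collagen genes of rat dorsal root ganglia (DRGs), the clusters of sensory neuron cell bodies beside the spinal cord, were followed in 9 RNA-Seq libraries. Members were taken by symbol: every gene called Col followed by a digit. The rule picked 45 of the 20413 genes in the table, and 44 of them are collagen chains. The other one, Col4a3bp, carries the name of a collagen it binds to but codes for a ceramide transporter (Cert1 in RefSeq), and it was kept apart. The rule used no measured value.

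The libraries came from ipsilateral L4–6 DRGs of male Sprague Dawley rats, 8 to 10 weeks old in the methods of the study, collected on day 10. There were 3 groups of 3 libraries. CPIP (chronic post-ischemia pain) rats had a tight O-ring around the ankle of a hind paw for 3 h under anaesthesia, followed by reperfusion. Sham rats, called control in the labels, were anaesthetised too, and the ring put on them had been cut open, so the paw was not made ischemic. CPIP+EA rats were CPIP rats that also had electroacupuncture (EA) at the Zusanli and Kunlun points of both hind limbs once a day for 10 days. No rat had EA without CPIP, so EA was seen only on top of the model. By the methods of the study, the RNA came from 3 rats of each group. Whether each library held 1 rat is not spelled out, so p-values measure the spread between these libraries. Levels are FPKM (fragments counted per gene, scaled for transcript length and for mapped reads), so they can be compared between genes.

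Collagens are secreted proteins built of 3 chains wound into a triple helix, and the chains of 1 molecule often come from different genes. Fibrillar collagens (types I, III and V) form the ropes of connective tissue. Type IV collagen forms the sheet of basement membranes, which in a DRG lie around blood vessels, Schwann cells and the satellite glia that wrap each neuron. Types II, IX, X and XI are best known from cartilage, where type II fibrils carry type IX molecules on their surface and type XI in their core. Other collagens form beaded filaments (type VI), sit on fibrils (types XII, XIV, XVI and others), or stay anchored in the cell membrane.

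The tissue label was met by its markers. The summed FPKM of 10 sensory neuron markers lay between 4224 and 5364 in the 9 libraries, that of 7 satellite glia markers between 3884 and 4509 and that of 10 Schwann cell markers between 5222 and 12672. Libraries resembled each other, with correlations of log2 values from 0.977 to 0.989. CPIP+EA replicate 3 stood apart in 10 bone marrow and red blood cell markers, whose sum was 5610 there and 594 to 3459 in the other libraries. CPIP+EA replicates 1 and 2 had the lowest fibroblast and meninges marker sums (999.5 and 725, against 1056 to 1702 in the other 7) and the highest sensory neuron sums (5364 and 5153). CPIP replicate 2 had a skeletal muscle marker sum of 161, against 8.44 to 51.5 elsewhere.

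All 44 collagens had a mean of at least 0.1 FPKM over the 9 libraries, the level required for testing, and all 44 were among the 17187 genes tested. Their levels spanned 3 orders of magnitude. Col3a1 (type III) was highest with a mean of 177 FPKM over the libraries, followed by Col1a1 (type I) with 159 and Col5a3 (a type V chain that Schwann cells are known to make) with 114. Col4a1 came next with 37.2, and Col6a2, Col16a1, Col6a1 and Col28a1 followed between 36.7 and 28.9. Neighbours in that run overlapped in their library values, so their order is not fixed. Of the 44, 3 had a mean of at least 100 FPKM, 14 lay between 10 and 100, 19 between 1 and 10 and 8 between 0.1 and 1. The least abundant were Col4a6 (0.173), Col6a4 (0.158) and Col17a1 (0.133). Col3a1 and Col1a1 together made up 28.8% to 44.2% of the summed collagen FPKM of a library.

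**Figure D1:**
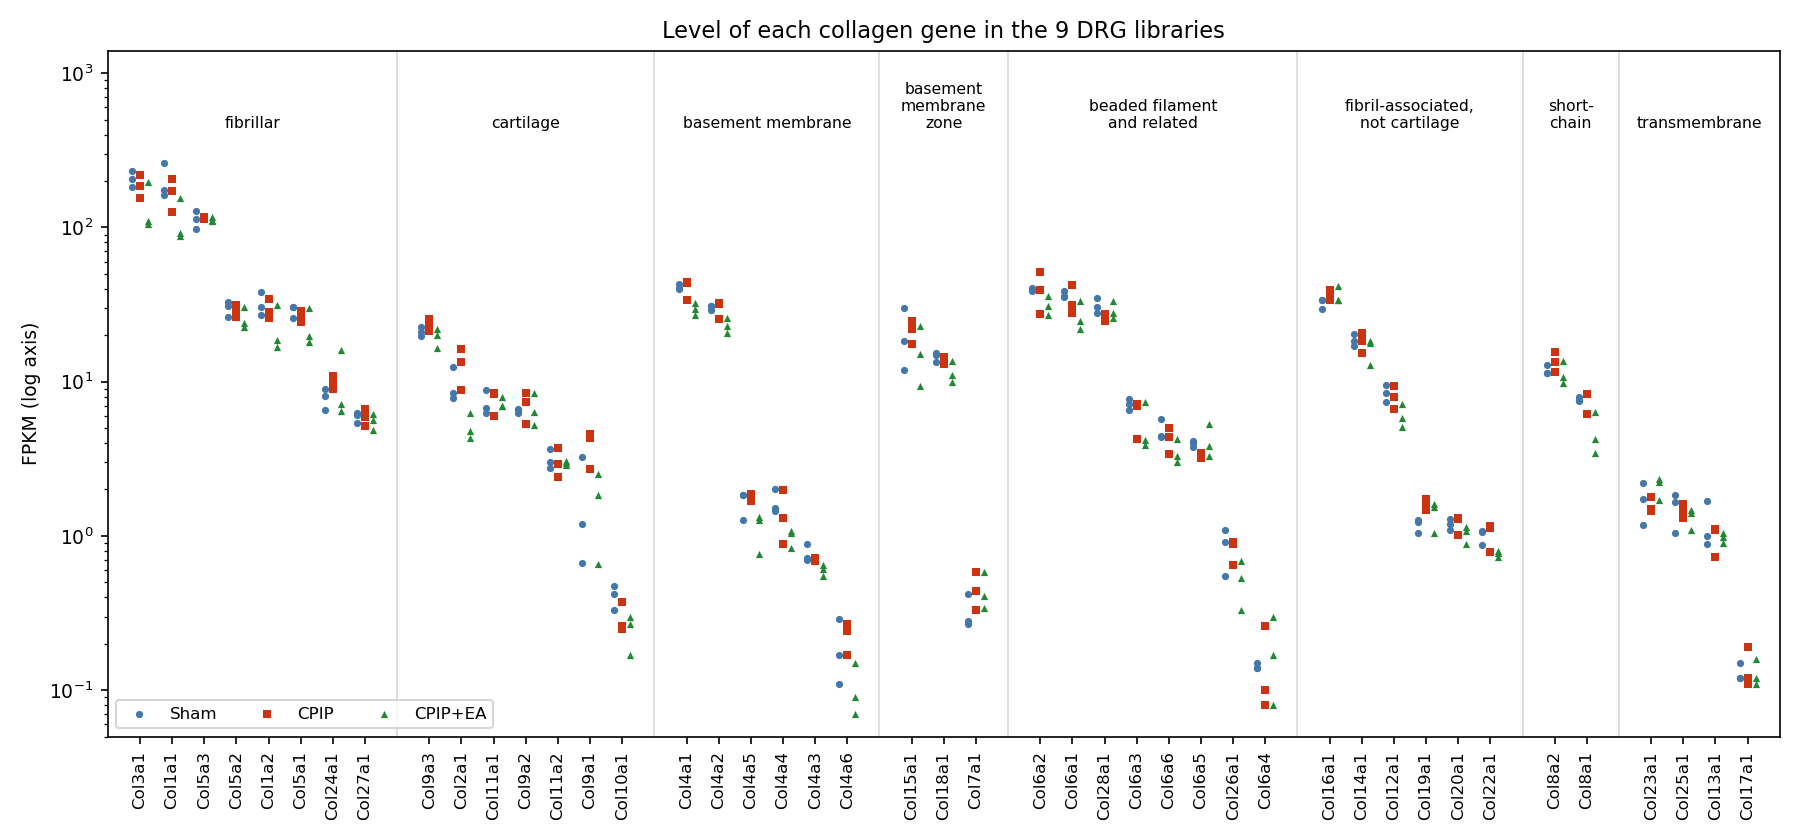
FPKM of the 44 collagen genes (y axis, log scale) in the 9 libraries, ordered along the x axis by class and by mean level; circles are Sham, squares CPIP and triangles CPIP+EA libraries. Col3a1, Col1a1 and Col5a3 stand above 87 FPKM in every library, and the CPIP+EA triangles of Col2a1 lie below the other 6 points.

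No collagen passed the threshold (Benjamini-Hochberg adjusted limma p below 0.01 and a change of at least 1.5-fold) in any of the 3 comparisons. Over all genes tested, that threshold called 0.355% for CPIP against Sham, 0.0% for CPIP+EA against CPIP and 0.483% for CPIP+EA against Sham. The smallest adjusted limma p of a collagen was 0.517 (Col9a1), 0.944 (Col2a1) and 0.0811 (Col4a1), respectively. The rest of the text therefore gives levels, sizes of difference and unadjusted p-values, and none of the differences below is a call.

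The collagens moved little between Sham and CPIP. Their median log2 fold change was −0.03, against −0.01 over all genes tested, with 27 of 44 below 0, where 52.1% of all genes were. At an unadjusted limma p below 0.05, 2 of 44 were higher in CPIP (Col9a1 and Col19a1), where the share over all genes was 4.61%, and 0 were lower, where it was 4.06%. Groups did not overlap for 2 collagens with lower CPIP values (Col28a1 and Col6a5) and 2 with higher ones (Col16a1 and Col19a1), against 7.9% and 7.98% of all genes. Leaving out Sham replicate 1 or CPIP replicate 1 brought the count at p below 0.05 to 0, and leaving out Sham replicate 2 brought it to 1. Leaving out CPIP+EA replicate 3, which enters this fit only through the shared estimate of spread, brought it to 4. In these fits, in that order, 4.17%, 4.28%, 3.8% and 5.52% of all genes were higher at that p, and 3.88%, 2.72%, 2.75% and 4.96% lower. The collagen shares of the main fit lie near those of all genes.

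In the CPIP+EA libraries, collagen levels sat lower. The summed collagen FPKM was 929, 1114 and 945 in the Sham libraries, 950, 1042 and 839 in the CPIP libraries, and 672, 674 and 930 for CPIP+EA replicates 1, 2 and 3. Replicates 1 and 2 of CPIP+EA were thus the lowest of the 9, while replicate 3 lay among the Sham and CPIP libraries. Those same replicates 1 and 2 had the highest sensory neuron and the lowest fibroblast and meninges sums, whose part in the lower levels, type IV included, was not tested. Single neuron markers did not all follow their sum: against Sham, 8 of 10 were below 0 in CPIP+EA (median −0.20). At an unadjusted limma p below 0.05, Prph and Tubb3 were higher, against 6.59% of all genes, and Rbfox3 and Scn10a lower, against 5.63%. The lowest group mean was that of CPIP+EA for 33 of 44 collagens, that of Sham for 7 and that of CPIP for 4. CPIP+EA replicate 1 was the lowest single library for 17 collagens and replicate 2 for 13. Such orders of groups and libraries were not counted over all genes.

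Against CPIP, 38 of 44 collagens had a log2 fold change below 0 in CPIP+EA, where 45.9% of all genes tested were. The collagen median was −0.24, and that over all genes tested was 0.01. At an unadjusted limma p below 0.05, 8 of 44 were lower (Col2a1, Col9a1, Col4a1, Col4a2, Col4a5, Col8a1, Col12a1 and Col18a1), against 2.07% of all genes, and 0 were higher, against 2.22%. The CPIP+EA values lay wholly below the CPIP values for 6 collagens (Col2a1, Col9a1, Col4a1, Col4a3, Col4a5 and Col4a6), against 3.4% of all genes, and wholly above them for 0, against 4.84%. The count of 8 fell to 3 without CPIP+EA replicate 2, to 4 without CPIP+EA replicate 1 and to 5 without CPIP replicate 2. In these fits, in that order, 1.32%, 3.38% and 1.35% of all genes were lower. The count was 20 lower and 1 higher (Col6a5) without CPIP+EA replicate 3, the library with the high bone marrow sum, where 4.29% and 2.98% of all genes were.

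Against Sham, 33 of 44 collagens were below 0 in CPIP+EA, where 49.6% of all genes tested were. The median log2 fold change was −0.20 for the collagens and 0.00 over all genes. At an unadjusted limma p below 0.05, 13 of 44 were lower (Col1a1, Col1a2, Col3a1, Col2a1, Col4a1, Col4a2, Col4a4, Col4a5, Col6a1, Col6a6, Col8a1, Col12a1 and Col18a1), against 5.63% of all genes, and 0 were higher, against 6.59%. CPIP+EA lay wholly below Sham for 13 collagens as well, against 7.32% of all genes, and wholly above it for 0, against 8.87%. The 2 comparisons share the CPIP+EA libraries, so their counts are not separate evidence. Leaving out CPIP+EA replicate 2 brought the 13 to 5, where 4.59% of all genes were lower. Leaving out CPIP+EA replicate 3 brought the 13 to 18 lower and 1 higher (Col19a1), where 6.62% and 7.18% of all genes were. Fewer cells of a type and less RNA per cell cannot be told apart in bulk tissue.

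**Figure D2:**
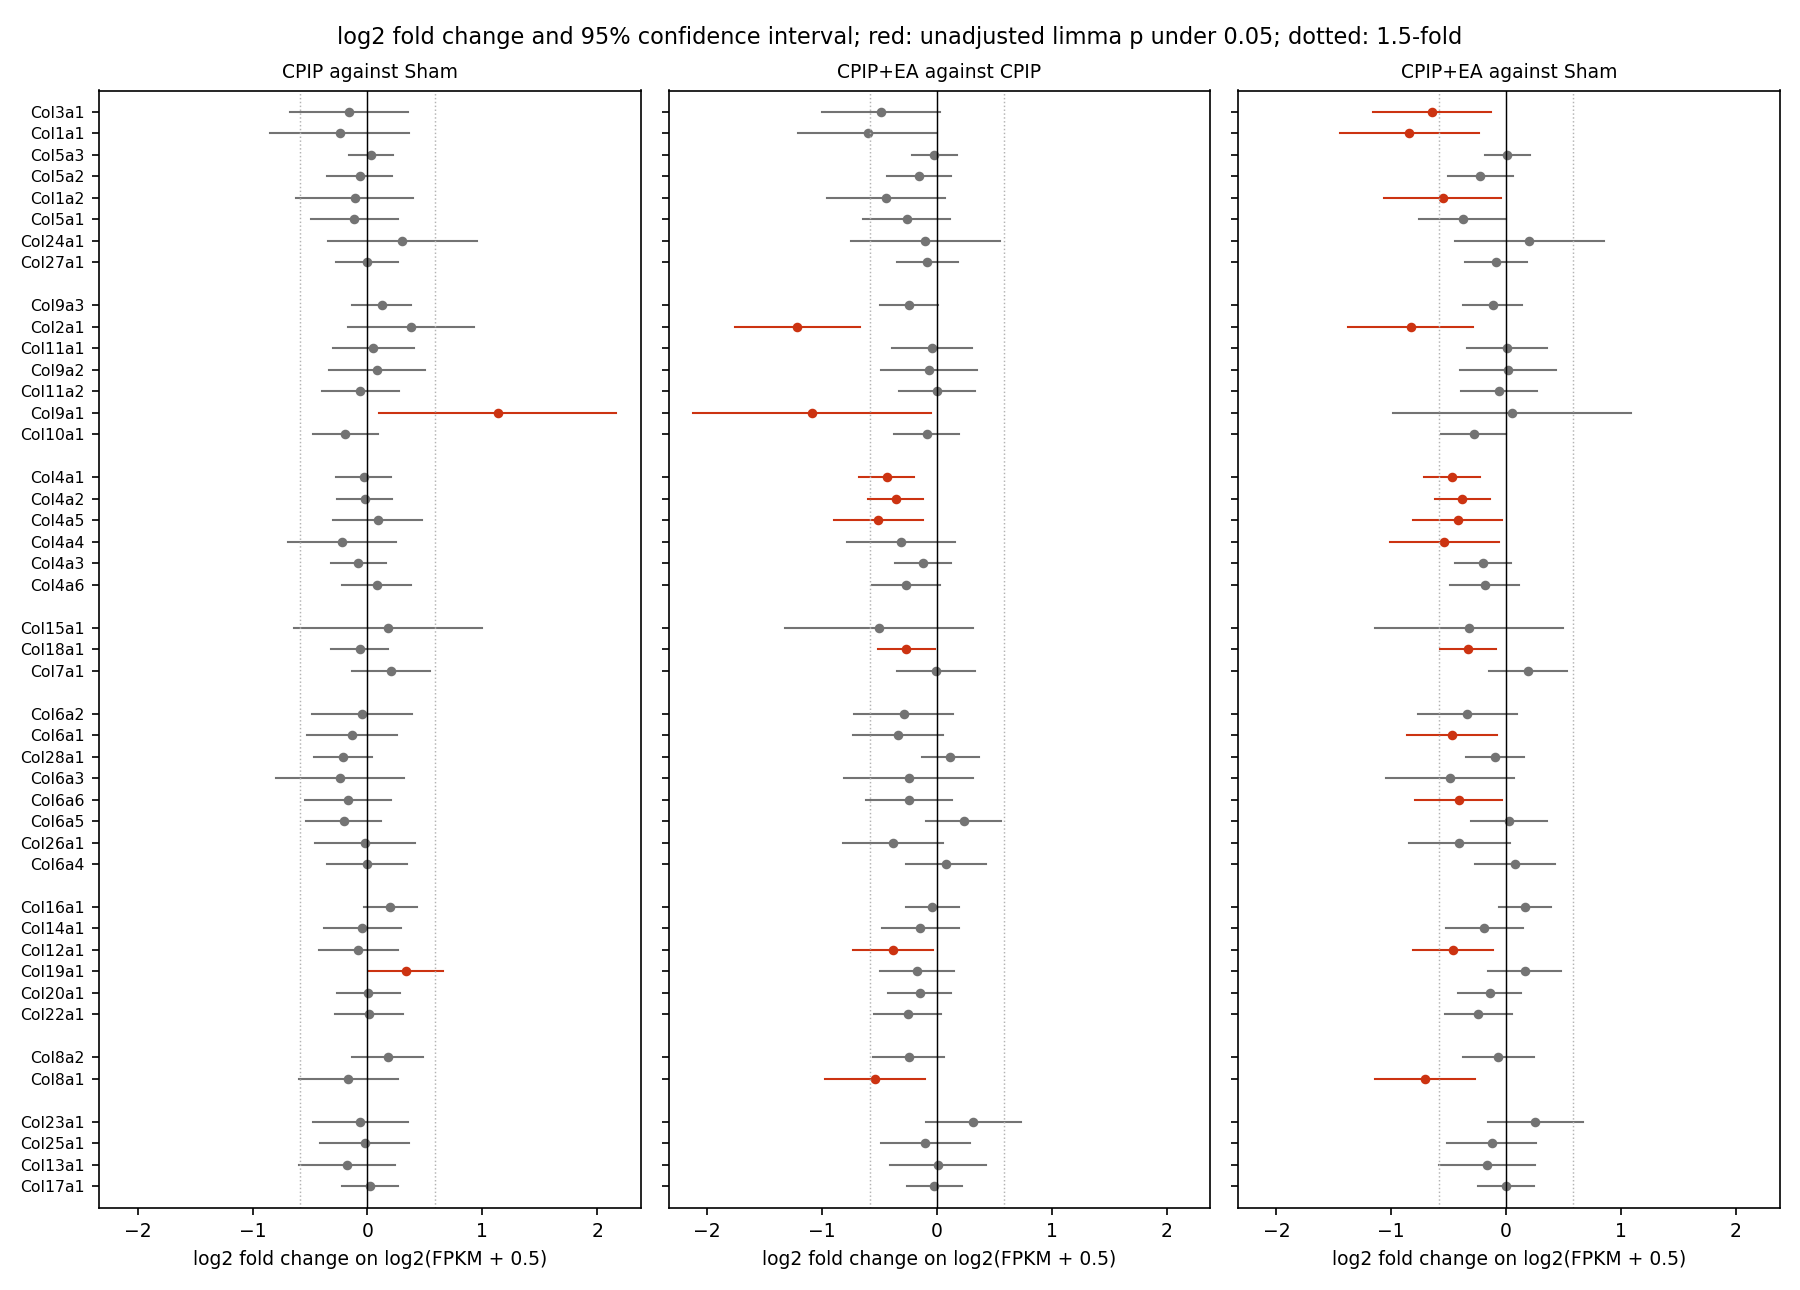
log2 fold change on the log2(FPKM + 0.5) scale (x axis) of each of the 44 collagens (y axis, by class) in the 3 comparisons; points are estimates of the limma fit, lines 95% confidence intervals, red an unadjusted p below 0.05, and dotted lines a 1.5-fold change. Red marks appear for 2 genes in CPIP against Sham, 8 in CPIP+EA against CPIP and 13 in CPIP+EA against Sham, the last 2 sets all left of 0.

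Among the 8 fibrillar chains, those of types I and III had the lowest CPIP+EA values relative to Sham. Col3a1, the single chain gene of type III collagen, measured 208, 232 and 183 FPKM for Sham, 185, 218 and 156 for CPIP and 106, 110 and 196 for CPIP+EA. Col1a1, the major chain of type I collagen, measured 174, 260 and 162 FPKM for Sham, 172, 205 and 125 for CPIP and 87.5, 92.8 and 155 for CPIP+EA. Col1a2, its partner chain, measured 30.7, 38.4 and 27.0 FPKM for Sham, 34.4, 28.3 and 25.9 for CPIP and 18.5, 16.8 and 31.5 for CPIP+EA. In all 3 genes, CPIP+EA replicates 1 and 2 were the lowest libraries of the 9. CPIP+EA replicate 3 lay within or close to the other groups, and it left only the Col1a1 values of CPIP+EA wholly below those of Sham.

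The fitted difference of Col1a1 between CPIP+EA (112 ± 37.7 FPKM, SD, n = 3) and Sham (199 ± 53.5) was −0.84 on the log2 scale, with a 95% confidence interval from −1.45 to −0.24 (limma, adjusted p = 0.230). Against CPIP (168 ± 39.9) it was −0.60, from −1.21 to 0.00. Col3a1 differed by −0.65 from Sham (−1.16 to −0.13, limma, adjusted p = 0.284) and by −0.49 from CPIP (−1.0 to 0.03). The Col1a1 and Col3a1 differences from CPIP came below an unadjusted limma p of 0.05 only in some alternatives. These were quantile normalization, TPM scaling and the fits without CPIP replicate 3 or CPIP+EA replicate 3, and for Col1a1 also without Sham replicate 2. For Col1a2 the difference from Sham was −0.55 (−1.07 to −0.04). Across alternatives, Col1a1 kept its unadjusted p below 0.05 against Sham in 18 of 18. Col3a1 lost it without Sham replicate 2, CPIP+EA replicate 1 or CPIP+EA replicate 2, and its log2 fold change then stayed at or below −0.49. Col1a2 kept it in 11 of 18, losing it among others with only Sham and CPIP+EA in the fit and without any one of Sham replicate 1, Sham replicate 2, CPIP replicate 2 and CPIP+EA replicates 1 and 2, and its difference came to −0.38 at the smallest.

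The other fibrillar chains varied to different degrees. Col5a3 was the steadiest abundant collagen, at 98.5, 113 and 127 FPKM for Sham, 114, 113 and 117 for CPIP and 117, 111 and 112 for CPIP+EA, a 1.29-fold span over all libraries. Its confidence interval for CPIP+EA against Sham ran from −0.18 to 0.20. Col5a1, which pairs with Col5a2 in the common form of type V, measured 25.9, 30.5 and 30.6 FPKM for Sham, 28.7, 27.0 and 24.4 for CPIP and 18.1, 19.9 and 30.0 for CPIP+EA. It thus had the low replicates 1 and 2 of the type I and III genes. Col5a2 ranged from 22.8 to 33.0 FPKM and Col27a1 from 4.89 to 6.70. Col24a1, a minor fibrillar chain known from bone, was 6.47, 7.13 and 16.1 FPKM for CPIP+EA, 6.59 to 8.96 in Sham and 8.95 to 10.8 in CPIP, a 2.48-fold span, with its highest value in the library with the high bone marrow sum.

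Connective tissue and bone markers are given beside the type I and III chains, since some of them were high or low in the same libraries. The sum of the 10 bone markers, most of it Spp1, was 596, 671 and 1033 FPKM for CPIP+EA, 753 to 794 in CPIP and 586 to 703 in Sham, and 6 of its 10 members were below 0 in CPIP+EA against Sham (median −0.03). Among the members, Bglap (osteocalcin) and Sp7 were highest in Sham replicate 2, the library highest in Col1a1 and Col3a1, with Bglap at 41.6 FPKM there and 1.07 to 16.2 elsewhere. Ibsp, Dmp1, Mepe and Alpl were highest in CPIP replicate 2, Spp1 and Ifitm5 in CPIP+EA replicate 3 and Phex in Sham replicate 3. The fibroblast and meninges sum of 12 markers was 999.5, 725 and 1352 in the CPIP+EA libraries, 1289 to 1409 in CPIP and 1056 to 1702 in Sham. It was low in the same CPIP+EA replicates 1 and 2 as the type I and III chains. In Sham replicate 2 its largest members went opposite ways: Ptgds, of the meninges, was at its lowest there (228 FPKM, against 330 to 1020 elsewhere), while Dcn (decorin) was at its highest (657, against 274 to 625). Against Sham, 11 of its 12 members were below 0, 2 of them at an unadjusted limma p below 0.05 (Lum and Pdgfra), against 5.63% of all genes, while Crabp2 was higher at that p, against 6.59%. The part of either marker set in the fibrillar collagen levels was not tested. The promoter of Col1a2 is shown as the reference sequence of a type I chain, for the 250 bases before its start in RefSeq GRCr8 (chr4:33518307-33518556, plus strand). Capitals mark CCAAT, written ATTGG on this strand, and TATAAA, the TATA box letters:

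Col1a2: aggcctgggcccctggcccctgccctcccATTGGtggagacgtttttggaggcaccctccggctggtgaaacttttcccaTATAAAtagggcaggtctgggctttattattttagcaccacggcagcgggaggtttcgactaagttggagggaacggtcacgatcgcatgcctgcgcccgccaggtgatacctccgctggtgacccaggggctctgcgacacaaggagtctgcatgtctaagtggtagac

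The cartilage-type chains did not behave as one set. Col2a1, the single chain gene of type II collagen, measured 7.86, 8.44 and 12.5 FPKM for Sham, 16.3, 13.3 and 8.77 for CPIP and 4.32, 4.77 and 6.29 for CPIP+EA. Every CPIP+EA library was below every Sham and CPIP library. The difference from CPIP was −1.21 on the log2 scale (95% confidence interval −1.76 to −0.67, limma, adjusted p = 0.944) and that from Sham −0.83 (−1.38 to −0.28, adjusted p = 0.193). The unadjusted p stayed below 0.05 in 18 of 18 alternatives for both, with the difference from CPIP between −1.45 and −1.02. CPIP replicate 1 gave the highest value and CPIP replicate 3 lay within the Sham range, and CPIP against Sham was 0.38 with an interval from −0.17 to 0.93.

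Col9a1, a type IX chain, was the most variable collagen, with a 6.89-fold span. It measured 1.19, 3.24 and 0.67 FPKM for Sham, 4.30, 4.55 and 2.71 for CPIP and 0.66, 1.83 and 2.52 for CPIP+EA. All CPIP values were above all CPIP+EA values, while Sham replicate 2 overlapped CPIP. The log2 difference was 1.13 for CPIP against Sham (95% confidence interval 0.10 to 2.17, limma, adjusted p = 0.517) and −1.08 for CPIP+EA against CPIP (−2.12 to −0.05, adjusted p = 0.996). Both rested on few libraries. The first passed an unadjusted p of 0.05 in 5 of 9 fits without 1 library, being lost without Sham replicate 1 or 3 or CPIP replicate 1 or 2, and the second in 4 of 9, being lost without Sham replicate 1, CPIP replicate 1 or 2, or CPIP+EA replicate 1 or 2, and also with a pseudocount of 0.1. Its smallest sizes in the alternatives were 0.76 and −0.69, respectively.

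The other type IX chains also had their highest group mean in CPIP, with groups that overlapped. Col9a3 was the most abundant cartilage-type chain, at 19.7, 20.9 and 22.6 FPKM for Sham, 25.5, 21.2 and 22.5 for CPIP and 16.4, 20.1 and 22.0 for CPIP+EA (−0.24 for CPIP+EA against CPIP, 95% confidence interval −0.50 to 0.01). That difference came below an unadjusted limma p of 0.05 with quantile normalization, TPM scaling and without CPIP replicate 2 or CPIP+EA replicate 3. Col9a2 measured 6.57, 6.69 and 6.28 FPKM for Sham, 7.37, 5.34 and 8.43 for CPIP and 6.37, 8.44 and 5.27 for CPIP+EA, with its highest and its lowest value both in CPIP+EA. A type IX molecule holds 1 chain of each of the 3 genes, but the ratio of Col9a3 to Col9a1 ran from 4.66 to 33.8 over the libraries.

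The type XI chains, which take part in the core of type II fibrils, overlapped throughout. Col11a1 measured 6.25, 8.86 and 6.78 FPKM for Sham, 8.40, 8.31 and 6.03 for CPIP and 6.92, 6.98 and 7.91 for CPIP+EA. Col11a2 measured 2.77, 3.01 and 3.67 FPKM for Sham, 3.70, 2.93 and 2.42 for CPIP and 2.90, 3.06 and 2.98 for CPIP+EA. Intervals for CPIP+EA against CPIP ran from −0.39 to 0.30 for Col11a1 and from −0.33 to 0.33 for Col11a2. Col10a1, the collagen of hypertrophic cartilage, was low, at 0.47, 0.33 and 0.42 FPKM for Sham, 0.26, 0.25 and 0.37 for CPIP and 0.17, 0.27 and 0.30 for CPIP+EA. Its CPIP+EA values were all below Sham (−0.28, interval −0.57 to 0.00), but at such levels the pseudocount of 0.5 makes the log2 difference smaller than the ratio of the means.

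**Figure D3:**
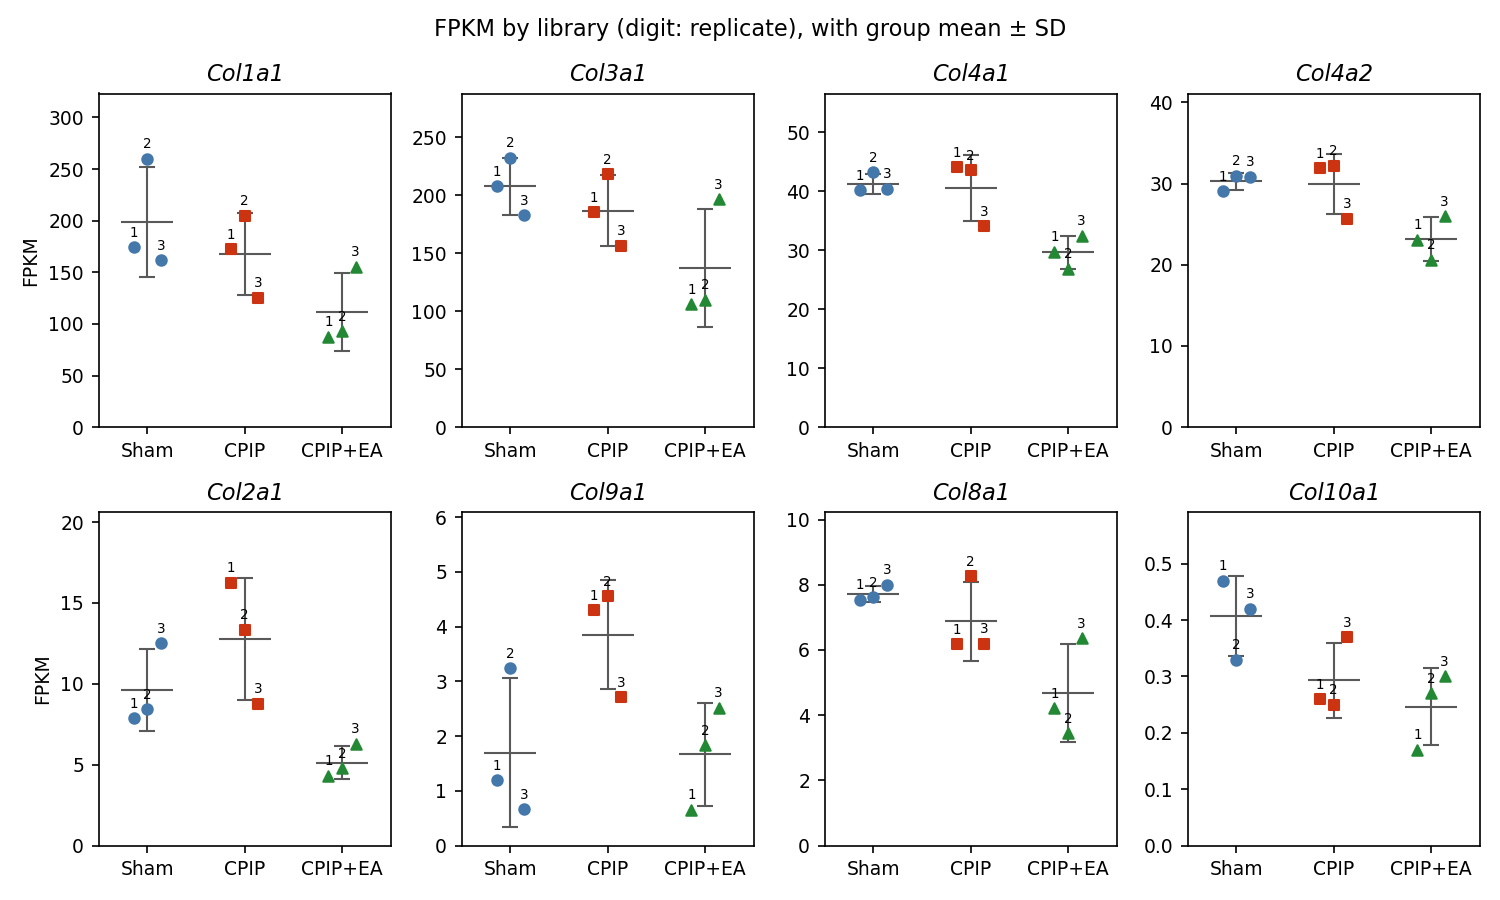
FPKM (y axis, from 0) of 8 collagens in the 3 groups (x axis), with each library as a point numbered by replicate and the group mean ± SD as a grey bar. Col2a1 in CPIP+EA (4.32 to 6.29) lies below all other libraries, while CPIP+EA replicate 3 stands above replicates 1 and 2 in Col1a1, Col3a1 and Col8a1.

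Of the 12 cartilage markers other than collagens, 4 stayed at or below 0.31 FPKM and others were higher. Acan, the core protein of cartilage aggrecan, was below 0.2 FPKM in every library, and Matn1, Matn3 and Clec3a did not reach the level required for testing. Hapln1, which links aggrecan to hyaluronan, was between 6.43 and 10.25 FPKM, within the range of Col2a1, and Comp between 3.08 and 4.26. Cytl1 ranged from 0.75 to 6.16 FPKM and Ucma from 1.04 to 2.0. Of the 9 cartilage markers tested, 0 were past the threshold, and at an unadjusted limma p below 0.05 there were 0 against CPIP and 2 against Sham in CPIP+EA (Comp higher, Ucma lower), against 6.59% and 5.63% of all genes. The sum of all 12, 75.4 to 169 FPKM over the libraries, was mostly 1 gene, Lect1 (chondromodulin), which was 55.4, 93.5 and 120 FPKM for CPIP+EA, 150, 112 and 98.8 for CPIP and 101 to 137 in Sham. Sox9, the cartilage transcription factor that is also found in glia, was between 0.52 and 1.34 FPKM. Myelinating Schwann cell markers were also low in CPIP+EA replicate 1, the library with the lowest Col2a1: the Schwann cell sum was 5222, 7553 and 10116 for CPIP+EA, 12672, 11701 and 7292 for CPIP and 7631, 9703 and 11890 for Sham. The orders differed elsewhere: CPIP+EA replicate 3 had a higher Schwann cell sum than Sham replicates 1 and 2 and CPIP replicate 3, but a lower Col2a1. Its part in the Col2a1 difference was not tested.

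The chains of the common type IV collagen had CPIP+EA values below Sham in every library. Col4a1 measured 40.2, 43.2 and 40.4 FPKM for Sham, 44.0, 43.5 and 34.0 for CPIP and 29.7, 26.9 and 32.5 for CPIP+EA. Col4a2, its partner in the common type IV molecule, measured 29.1, 31.0 and 30.8 FPKM for Sham, 31.9, 32.2 and 25.7 for CPIP and 23.1, 20.6 and 26.0 for CPIP+EA. Every CPIP+EA library was also below every CPIP library in Col4a1, while for Col4a2 CPIP+EA replicate 3 lay just above CPIP replicate 3.

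For Col4a1 the difference was −0.47 from Sham (95% confidence interval −0.71 to −0.23, limma, adjusted p = 0.0811) and −0.44 from CPIP (−0.68 to −0.20, adjusted p = 0.996). For Col4a2 it was −0.38 from Sham (−0.62 to −0.14, limma, adjusted p = 0.161) and −0.36 from CPIP (−0.60 to −0.12, adjusted p = 0.996). CPIP and Sham differed by −0.03 and −0.02, with intervals from −0.28 to 0.21 and from −0.26 to 0.21. In both EA comparisons the 2 genes kept an unadjusted p below 0.05 under 18 of 18 alternatives, the leaving out of any library included, at sizes of −0.28 to −0.56. The smallest adjusted p of Col4a1 among them was 0.0283, so none passed 0.01.

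Col4a1 and Col4a2 lie head to head, and their levels moved as a pair. The Col4a1 to Col4a2 ratio was 1.38, 1.39 and 1.31 for Sham, 1.38, 1.35 and 1.32 for CPIP and 1.29, 1.30 and 1.25 for CPIP+EA. It spanned 1.12-fold over the libraries, while the genes themselves spanned 1.64-fold and 1.56-fold, and the CPIP+EA ratios were all below the rest. No other pair of partner chains was as tight: the ratio spanned 1.27-fold for Col6a2 and Col6a1, 1.54-fold for Col1a1 and Col1a2 and for Col5a1 and Col5a2, 1.59-fold for Col11a1 and Col11a2, 2.25-fold for Col4a3 and Col4a4 and 2.97-fold for Col4a5 and Col4a6. The last 2 pairs also lie head to head, but were low, between 0.07 and 2.02 FPKM.

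In RefSeq GRCr8 only 76 bases separate the starts of Col4a1 and Col4a2, and both genes read outward from them (chr16:84885521-84885596). The starts of Col4a3 and Col4a4 are 412 bases apart, and the 250 bases before the start of Col4a3 are chr9:91323740-91323989. Both are shown, plus strand, because the levels of the first pair moved together more closely than those of the second. Capitals mark GGGCGG, the GC box letters, or CCGCCC, the same on the other strand. The 2 stretches differ in length, and the 250 bases before the start of Col4a1 and those before Col4a2 each held 1 CCAAT. No CCAAT or TATAAA was found in either stretch as shown:

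Col4a1-Col4a2: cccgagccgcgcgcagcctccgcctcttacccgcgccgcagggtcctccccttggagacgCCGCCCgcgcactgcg

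Col4a3: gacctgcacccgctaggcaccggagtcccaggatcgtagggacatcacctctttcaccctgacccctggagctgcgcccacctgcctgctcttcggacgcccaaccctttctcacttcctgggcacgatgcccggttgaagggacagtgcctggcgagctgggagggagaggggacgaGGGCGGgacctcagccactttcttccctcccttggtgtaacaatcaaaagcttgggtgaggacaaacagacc

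Searched on both strands, with overlapping motifs counted apart, GGGCGG occurred in 19.3% of all 27457 RefSeq promoters within 76 bases before the start and in 32.4% within 250 bases. CCAAT occurred in 13.0% and 34.3%, and TATAAA in 4.78% and 13.1%. Among the 35 collagens with a promoter entry, the 250 bases held GGGCGG in 19 (54.3%), CCAAT in 11 (31.4%) and TATAAA in 4 (11.4%). These are matches of letters and no measured binding.

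**Figure D4:**
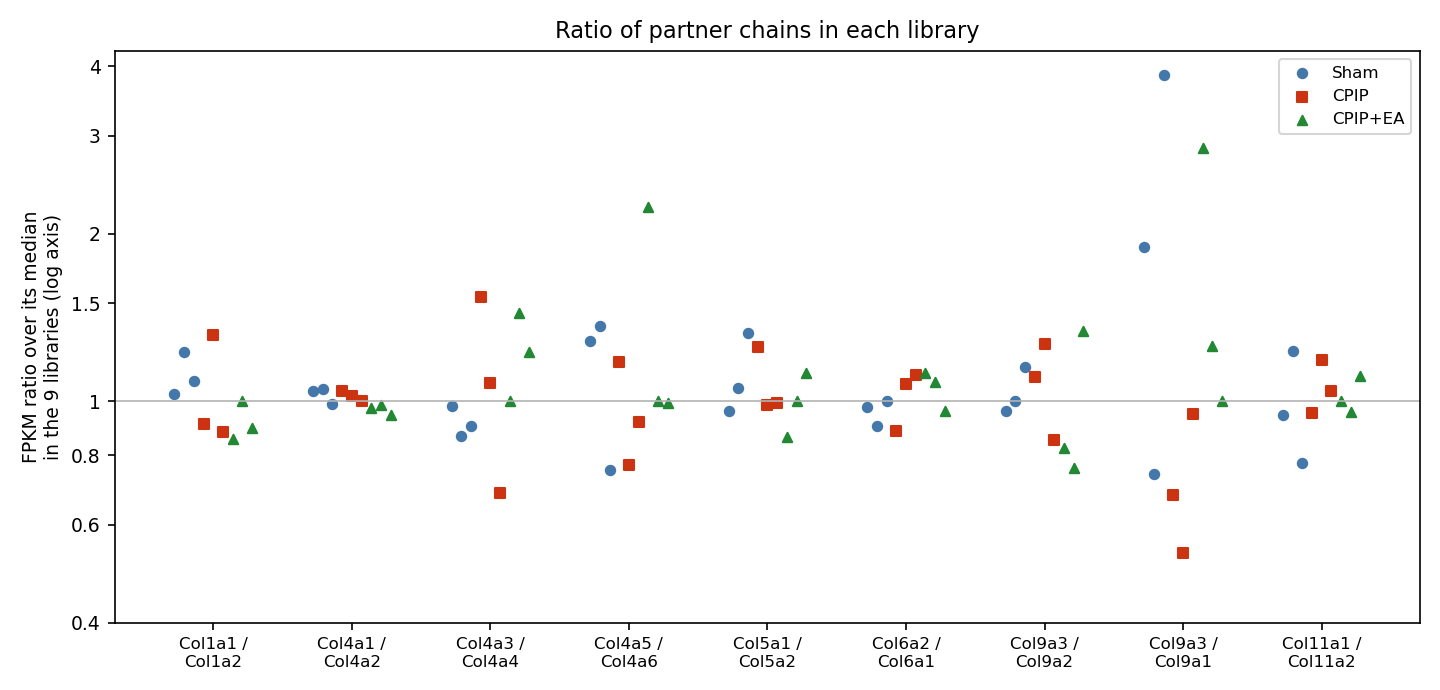
Ratio of the FPKM of partner chains in each library, divided by the median ratio of the 9 libraries (y axis, log scale), for 9 pairs (x axis); circles are Sham, squares CPIP and triangles CPIP+EA. Col4a1 to Col4a2 is the tightest pair, with a 1.12-fold span, and Col9a3 to Col9a1 the widest, with 7.25-fold.

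The other type IV chains, which form the basement membranes of particular tissues such as the kidney glomerulus, were low. Col4a5 measured 1.84, 1.27 and 1.84 FPKM for Sham, 1.69, 1.75 and 1.86 for CPIP and 1.32, 0.76 and 1.26 for CPIP+EA, with all CPIP+EA values below CPIP (−0.51, interval −0.90 to −0.12, limma, adjusted p = 0.996). Its unadjusted p was no longer below 0.05 without CPIP+EA replicate 2, at −0.34. The difference of Col4a5 from Sham was −0.42 and lost that p with only the 2 groups in the fit and without Sham replicate 1 or 3 or CPIP+EA replicate 2, at −0.25 at the smallest. Col4a4 measured 1.44, 2.02 and 1.52 FPKM for Sham, 0.88, 1.31 and 1.98 for CPIP and 1.08, 0.83 and 1.04 for CPIP+EA (−0.54 from Sham, interval −1.01 to −0.07), and lost an unadjusted p below 0.05 without Sham replicate 2 or CPIP+EA replicate 2, at −0.42 at the smallest. Col4a3 was between 0.55 and 0.65 FPKM in CPIP+EA, 0.69 and 0.72 in CPIP and 0.70 and 0.89 in Sham, so that CPIP+EA lay below both. Col4a6 lay below 0.30 FPKM throughout. All 6 type IV chains were below 0 in CPIP+EA against both other groups, with medians of −0.34 against CPIP and −0.40 against Sham.

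The basement membrane zone collagens sit between that sheet and the tissue around it. Col18a1, the source of endostatin, measured 13.5, 14.8 and 15.4 FPKM for Sham, 14.2, 14.5 and 13.0 for CPIP and 11.0, 9.98 and 13.6 for CPIP+EA. The difference was −0.33 from Sham (95% confidence interval −0.58 to −0.09, limma, adjusted p = 0.251) and −0.27 from CPIP (−0.51 to −0.02). An unadjusted p below 0.05 was lost for the second in 7 of 18 alternatives, among them the fit of CPIP and CPIP+EA alone and 5 of 9 fits without 1 library (Sham replicate 2, CPIP replicates 1 and 2, CPIP+EA replicates 1 and 2), at −0.17 at the smallest, and for the first only without CPIP+EA replicate 2, at −0.24. Col15a1 was highly variable within groups, at 11.9, 30.0 and 18.3 FPKM for Sham, 24.8, 22.0 and 17.5 for CPIP and 15.1, 9.39 and 22.9 for CPIP+EA. Col7a1, the anchoring fibril collagen of skin, lay between 0.27 and 0.58 FPKM.

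Laminins, nidogens and perlecan share the basement membrane with type IV collagen, and none of them passed the threshold. Of 16 partners tested, 14 were below 0 against CPIP, 7 of them at an unadjusted limma p below 0.05 (Hspg2, Lama2, Lama5, Lamc1, Lamc3, Nid1 and Nid2), where 2.07% of all genes were. Against Sham, 13 were below 0, with 7 at that p (Lamb2 in place of Lama5), where 5.63% of all genes were. Lamc1, the common laminin gamma chain, measured 36.0, 36.5 and 34.5 FPKM for Sham, 32.4, 34.4 and 28.6 for CPIP and 27.6, 23.6 and 28.4 for CPIP+EA. Its difference from Sham, −0.43 (95% confidence interval −0.62 to −0.23, limma, adjusted p = 0.0599), had the smallest p of the list. Hspg2 (perlecan) had the smallest p against CPIP, at −0.39 (interval −0.65 to −0.12, limma, adjusted p = 0.996). Against Sham, Hspg2 differed by −0.53 and Nid1 (nidogen) by −0.51. Blood vessel markers, another source of basement membrane, summed to 131, 135 and 189 FPKM for CPIP+EA, 135 to 176 in CPIP and 153 to 192 in Sham, and 9 of 10 were below 0 against CPIP (median −0.10) and 8 of 10 against Sham (−0.21). At an unadjusted limma p below 0.05 there were 0 of 10 in either EA comparison, where 2.07% and 5.63% of all genes were lower. Perineurial sheath markers, from another cell type with a basement membrane, summed to 186, 161 and 191 FPKM for CPIP+EA, 177 to 217 in CPIP and 191 to 209 in Sham. Of the 7 tested, 6 were below 0 against CPIP (median −0.18) and 7 against Sham (−0.48), with 1 (Sfrp4) and 3 (Ntn4, Sfrp4 and Tenm2) at that p. Of the 10 Schwann cell markers, 8 were below 0 against each group (medians −0.40 and −0.24), with 1 (Prx) and 0 at that p. Satellite glia markers, most of their sum Apoe, summed to 4330, 4509 and 4307 FPKM for CPIP+EA, 4098 to 4425 in CPIP and 3884 to 4038 in Sham. Of the 7, 4 were below 0 against each group (medians −0.04 and −0.05). At that p, Glul was lower and Fabp7 higher against CPIP, where 2.22% of all genes were higher. Against Sham, Cadm2 and Glul were lower. The part of these cell types in the type IV values was not tested.

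**Figure D5:**
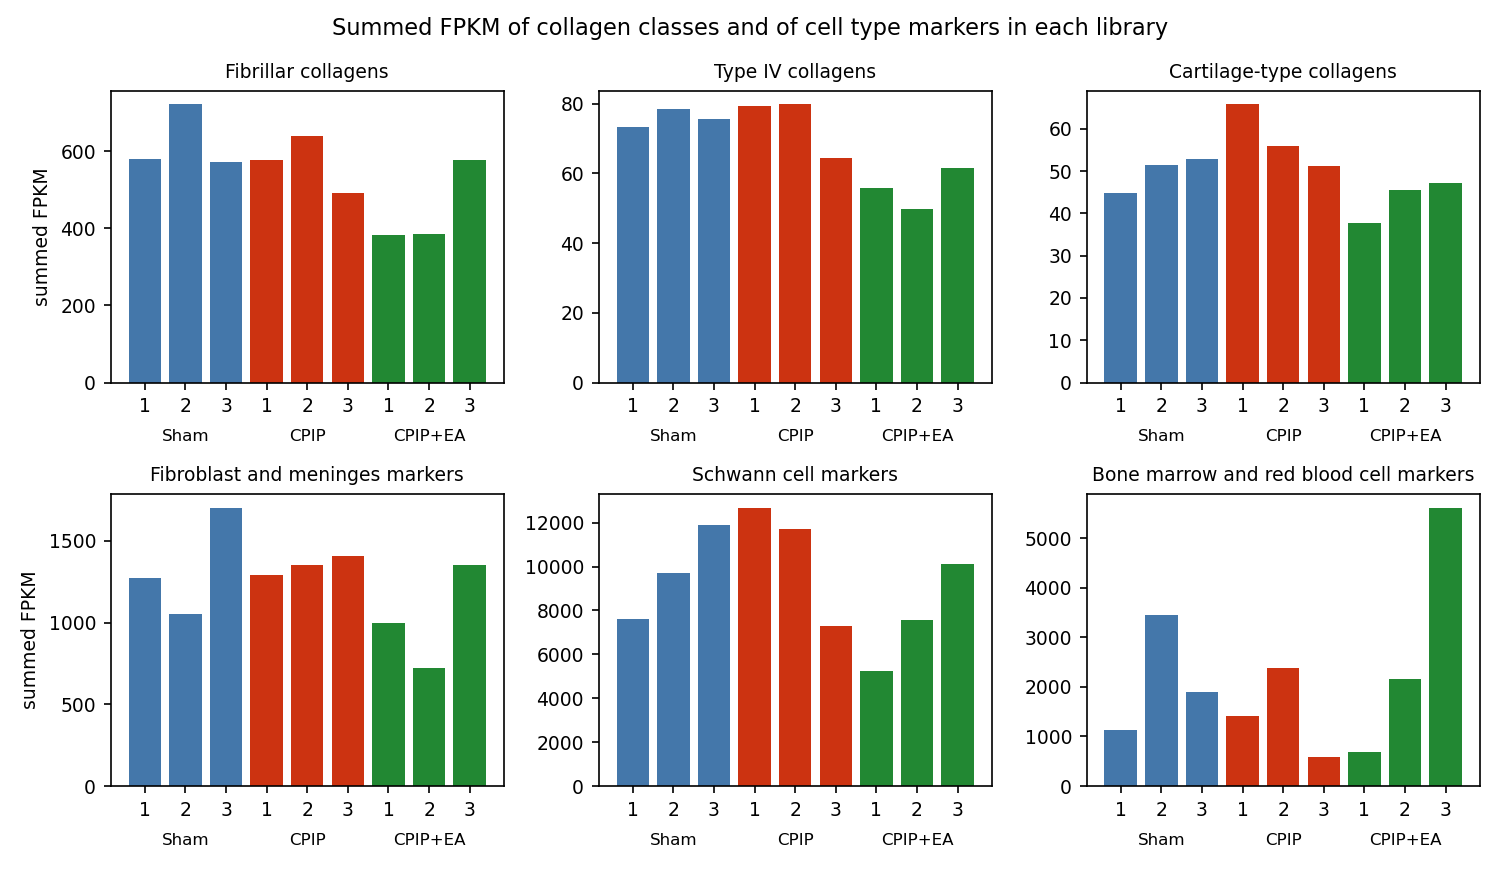
Summed FPKM (y axes, from 0) of the fibrillar, type IV and cartilage-type collagens (top) and of 3 cell type marker lists (bottom) in each library (x axis, replicates 1 to 3 of each group). The type IV sum is lowest in the 3 CPIP+EA libraries (49.8 to 61.5, against 64.5 to 79.8), while the fibrillar sum of CPIP+EA replicate 3 (578) lies among the Sham and CPIP libraries.

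Type VI collagen forms beaded filaments around cells, and its Col6a1 and Col6a2 chains were abundant. Col6a2 measured 38.8, 39.3 and 40.3 FPKM for Sham, 27.7, 51.2 and 39.1 for CPIP and 31.2, 26.9 and 35.9 for CPIP+EA. Col6a1 measured 35.5, 38.8 and 36.0 FPKM for Sham, 27.9, 42.5 and 31.3 for CPIP and 24.8, 22.1 and 33.4 for CPIP+EA. CPIP+EA lay wholly below the narrow Sham range in both, and the wide CPIP group overlapped it. CPIP replicate 2, the library with the high skeletal muscle sum, was highest in both, and the part of muscle was not tested. The Col6a1 difference from Sham was −0.47 (95% confidence interval −0.86 to −0.08, limma, adjusted p = 0.308). It lost an unadjusted p below 0.05 without Sham replicate 2 or CPIP+EA replicate 1 or 2, at −0.35 at the smallest.

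The other type VI chains were lower. Col6a6 measured 5.69, 4.39 and 4.44 FPKM for Sham, 3.42, 4.36 and 5.01 for CPIP and 3.02, 3.28 and 4.27 for CPIP+EA (−0.41 from Sham, interval −0.79 to −0.03), and lost an unadjusted p below 0.05 without Sham replicate 1 or CPIP+EA replicate 1 or 2, at −0.30 at the smallest. Col6a3 ranged from 3.86 to 7.73 FPKM, with low values in CPIP replicate 3 (4.23) and CPIP+EA replicates 1 and 2 (3.86 and 4.21). Col6a5 went its own way, at 3.80 to 4.10 FPKM in Sham, 3.21 to 3.47 in CPIP and 5.29, 3.81 and 3.29 for CPIP+EA, its highest value being in CPIP+EA replicate 1, where most collagens were low. Col6a4 lay at or below 0.30 FPKM. Col28a1, which is known from glia of peripheral nerve, measured 30.4, 35.1 and 27.7 FPKM for Sham, 24.9, 27.3 and 27.6 for CPIP and 27.8, 33.3 and 25.9 for CPIP+EA, and its CPIP values lay just below Sham (−0.21, interval −0.46 to 0.04). Col26a1, which is expressed at 0.33 to 1.10 FPKM, was −0.41 in CPIP+EA against Sham (interval −0.84 to 0.03).

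All 6 collagens that sit on fibrils outside cartilage were below 0 in CPIP+EA against CPIP, and Col12a1 had the lowest fold change of them against both other groups. It measured 8.39, 7.39 and 9.50 FPKM for Sham, 7.92, 9.35 and 6.68 for CPIP and 5.79, 5.09 and 7.15 for CPIP+EA. The difference was −0.46 from Sham (95% confidence interval −0.81 to −0.11, limma, adjusted p = 0.258) and −0.38 from CPIP (−0.73 to −0.03). An unadjusted p below 0.05 was lost for the former without Sham replicate 3 or CPIP+EA replicate 2, at −0.36 at the smallest, and for the latter in 5 of 18 alternatives, among them 4 of 9 fits without 1 library (CPIP or CPIP+EA replicates 1 and 2), at −0.27 at the smallest. Col16a1, the most abundant of the class, measured 29.6, 33.8 and 33.6 FPKM for Sham, 38.4, 34.0 and 39.3 for CPIP and 33.6, 33.6 and 41.9 for CPIP+EA. Its CPIP values were all above Sham, by 0.20 on the log2 scale (interval −0.03 to 0.43).

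Col19a1 measured 1.26, 1.24 and 1.05 FPKM for Sham, 1.73, 1.48 and 1.65 for CPIP and 1.55, 1.60 and 1.04 for CPIP+EA. CPIP was 0.33 above Sham (95% confidence interval 0.01 to 0.65, limma, adjusted p = 0.550). An unadjusted p below 0.05 was lost in 5 of 9 fits without 1 library (any Sham library, CPIP replicate 1 or 3) and under TPM scaling, quantile normalization or a minimum mean of 1 FPKM. Col14a1 (12.9 to 20.6 FPKM), Col20a1 (0.89 to 1.30) and Col22a1 (0.73 to 1.16) overlapped between CPIP and both other groups. Col22a1 in CPIP+EA, at 0.73 to 0.80, lay wholly below Sham, at 0.87 to 1.08 (−0.24, interval −0.53 to 0.05).

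The short-chain collagens of type VIII, known from blood vessels and the cornea, were both below 0 in CPIP+EA against each other group. Col8a1 measured 7.54, 7.61 and 8.0 FPKM for Sham, 6.17, 8.27 and 6.19 for CPIP and 4.22, 3.45 and 6.36 for CPIP+EA. All CPIP+EA values were below Sham, by −0.71 (95% confidence interval −1.14 to −0.27, limma, adjusted p = 0.152), and the unadjusted p stayed below 0.05 in 18 of 18 alternatives. Against CPIP the difference was −0.54 (−0.97 to −0.11), with the unadjusted p at 0.05 or above without CPIP replicate 2 or CPIP+EA replicate 1 or 2, at −0.36 at the smallest. Col8a2 measured 12.8, 11.4 and 11.4 FPKM for Sham, 11.6, 15.7 and 13.5 for CPIP and 9.88, 10.7 and 13.7 for CPIP+EA, and overlapped throughout (−0.07 from Sham, interval −0.38 to 0.24, and −0.24 from CPIP, interval −0.55 to 0.06). The difference from CPIP came below an unadjusted limma p of 0.05 without CPIP replicate 1 or CPIP+EA replicate 3. Both chains were highest in CPIP replicate 2, the library with the high skeletal muscle sum.

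The 4 transmembrane collagens are anchored in the cell membrane and lay at or below 2.33 FPKM in all libraries. Col23a1 measured 1.17, 1.74 and 2.20 FPKM for Sham, 1.78, 1.46 and 1.49 for CPIP and 1.71, 2.24 and 2.33 for CPIP+EA, with the highest fitted difference of any collagen in CPIP+EA against CPIP, 0.32 (interval −0.10 to 0.73). Col25a1, which neurons are known to make, ranged from 1.04 to 1.85 FPKM and Col13a1 from 0.73 to 1.68. Col17a1, a component of hemidesmosomes in skin, lay between 0.11 and 0.19. The median of the 4 was −0.01 against CPIP and −0.06 against Sham. Col4a3bp, which is no collagen, was between 32.1 and 36.3 FPKM in all libraries and its log2 fold changes lay between −0.07 and 0.08.

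Genes that make, bind or sense collagen were read from lists of the pathway. In 20 hydroxylases and chaperones that modify and fold collagen chains inside the cell, the median log2 fold change was 0.02 against CPIP and −0.03 against Sham in CPIP+EA, with 0 members at an unadjusted limma p below 0.05 against CPIP. Against Sham, 2 were higher at that p (Colgalt1 and P3h4) and 1 lower (Plod2), where 6.59% and 5.63% of all genes were. Serpinh1, the collagen chaperone, measured 86.8, 100.2 and 103 FPKM for Sham, 91.4, 98.3 and 69.7 for CPIP and 65.2, 81.9 and 120 for CPIP+EA. Of 12 procollagen proteinases and cross-linking oxidases, 11 were below 0 in CPIP+EA against CPIP and against Sham, where 45.9% and 49.6% of all genes were. At an unadjusted limma p below 0.05, 2 were lower against CPIP (Adamts2 and Pcolce) and 3 against Sham (Adamts2, Pcolce and Tll1). The shares of all genes were 2.07% and 5.63%. Adamts2, which trims the amino end of types I and III, had the smallest p of them, at −0.54 from Sham (limma, adjusted p = 0.128) and −0.39 from CPIP (interval −0.70 to −0.07). Pcolce, which helps to trim the other end, was −0.58 from Sham and −0.50 from CPIP, with 17.2, 19.9 and 31.7 FPKM for CPIP+EA against 26.4 to 37.6 in the other 6 libraries.

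Small proteoglycans that bind collagen fibrils were below 0 in 9 of 9 tested, in CPIP+EA against both other groups, with 0 at an unadjusted limma p below 0.05 against CPIP and 3 against Sham (Bgn, Lum and Prelp), where 2.07% and 5.63% of all genes were lower at that p. Lum (lumican) measured 119, 115 and 105 FPKM for Sham, 80.6, 83.4 and 81.1 for CPIP and 74.0, 56.2 and 91.3 for CPIP+EA. Its Sham values lay above both other groups: CPIP+EA differed from Sham by −0.64 (limma, adjusted p = 0.0839) and CPIP by −0.47 (adjusted p = 0.323). It also stands in the fibroblast and meninges list, as does Dcn. Among 10 collagen receptors, 8 were below 0 in CPIP+EA against Sham. At an unadjusted limma p below 0.05, 3 were lower (Ddr2, Itga11 and Mrc2), against 5.63% of all genes, and 1 higher (Itgb1), against 6.59%. Against CPIP, 6 were below 0. At that p, 1 was lower (Ddr1), against 2.07% of all genes, and 0 were higher, against 2.22%. Itgb1, the integrin beta chain shared by the collagen-binding integrins, went the other way, at 121, 130 and 106 FPKM for Sham, 148, 144 and 153 for CPIP and 162, 158 and 165 for CPIP+EA. It was 0.45 above Sham in CPIP+EA (limma, adjusted p = 0.0230) and 0.32 above it in CPIP (adjusted p = 0.134), and did not pass the threshold.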

How the data were processed

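Total RNA of the 9 libraries was enriched for poly(A) RNA and sequenced as 50 base single-end reads (BGISEQ-500), by the methods of the study. The authors deposited gene-level FPKM, normalized for transcript length and mapped reads. The aligner, genome build, annotation and use of strand are not given in the sources used here, so reads of overlapping antisense genes cannot be told apart. Deposited log2 ratios, P values and Q values of the authors' own comparisons were not used. The table gives no read counts, so counting error is unknown. The most frequent ratio of low values (0.1 to 0.6 FPKM) to those of the first library was 1 in 8 of 8 libraries.

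Genes with a mean of at least 0.1 FPKM were tested with limma 3.58.1 (R 4.3.3) on log2(FPKM + 0.5), with all 9 libraries in 1 fit and a mean-variance trend, two-sided, adjusted by Benjamini-Hochberg over 17187 genes. Fold changes on this scale understate those of low genes. The script was tested on simulated data. The members, classes and gene lists were chosen with earlier results of these data known. Values in each library were printed for all cartilage-type collagens, every collagen with an unadjusted p below 0.05 and the most abundant of each class. Other genes named with values have the smallest p of their list, except Serpinh1, Pcolce, Nid1, Bglap, Dcn, Ptgds, Lect1, Acan, Hapln1, Comp, Cytl1, Ucma, Sox9 and further collagens, which were chosen after their values were seen. The cartilage class was written out after the other classes. Col21a1 and Pcolce2 were not analysed here. Promoters came from RefSeq GRCr8, matched by gene identifier. Alternatives were pseudocounts of 0.1 and 1, no filter, a minimum of 1 FPKM, quantile normalization, TPM scaling, no trend, a replicate block, fits of 2 groups and leaving out each library.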

Additional observations from a re-analysis of the deposited data

How the results depend on the processing

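The count of collagens past the threshold was 0 in all 3 comparisons under each of the 18 alternatives, and no collagen difference with an unadjusted limma p below 0.05 changed sign under them. Named differences above that p were not followed gene by gene, apart from the naming of fits that brought some of them below it. Counts at an unadjusted limma p below 0.05 moved more. For CPIP against Sham, 2 genes became 1 with a minimum mean of 1 FPKM, 1 with quantile normalization, 1 with TPM scaling and 4 with only the 2 groups in the fit, and leaving out each library gave 0 to 4. For CPIP+EA against CPIP, 8 genes became 12 with quantile normalization, 11 with TPM scaling and 3 to 21 when a library was left out. For CPIP+EA against Sham 13 became 16, 16 and 5 to 19, respectively. With quantile normalization and TPM scaling, 2.08% and 2.48% of all genes were lower against CPIP, and 6.12% and 6.89% against Sham. Single genes kept a p below 0.05 in 355 refits and lost it in 59. Whether same-numbered replicates form pairs is not stated, and the main fit treated the libraries as unpaired. Correlations of same-numbered deviations ran from -0.236 to 0.297 and passed 0.1 in 2 of 9 pairs. Deviations from the mean of 3 libraries sum to 0 within a group, so these values cannot settle the question. With the replicate block the counts were 3, 6 and 12: Col28a1 was added for CPIP against Sham, Col12a1 and Col18a1 were no longer below 0.05 for CPIP+EA against CPIP, nor Col1a2 for CPIP+EA against Sham. No scaling moved the median of all genes by over 0.1 (log2). Read counts are not in the table, so how far depth limits the chains below 1 FPKM is unknown.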
